A study of Mus musculus with 4 samples.

Results

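Single hematopoietic stem cells (HSCs) that carried RNA of complement C1q were a small minority of the sorted stem cells of mouse bone marrow. Of 45418 barcodes in 4 libraries, 5579 were kept as cells, which required 1000 or more genes, 2000 or more unique molecular identifiers (UMIs, each marking 1 captured RNA molecule) and a share of mitochondrial (mt-) UMIs of no more than 10%. Of these, 207 cells (3.71%) had at least 1 UMI of C1qa, C1qb or C1qc and are called C1q-bearing. Within them, 49 core cells had UMIs of 2 or 3 of the genes and 158 single-gene cells had UMIs of 1. The other 5372 kept cells had no C1q UMI and are called C1q-negative, although a count of 0 does not show that a cell lacked the RNA. The cells were chosen by their C1q UMIs, so C1q values are given as a description with no test. The other genes were counted in the same cells but did not enter the choice.

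C1q is the recognition subunit of the classical complement pathway. Its A, B and C chains, encoded by C1qa, C1qb and C1qc, join into a bouquet-shaped protein that binds antibody complexes and dying cells. Most complement proteins come from the liver, whereas C1q is made mainly by tissue macrophages, and the macrophages of bone marrow that surround and engulf erythroid cells also make Vcam1, Cd5l, Slc40a1 and Hmox1. HSCs are recognised instead by Kit and Sca-1 (Ly6a) on their surface and by transcription factors such as Hlf and Mecom.

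Bone marrow of 2 male mice, 14 weeks old, was sorted into LT-HSC (long-term) and ST-HSC (short-term) gates, and each gate of each mouse gave 1 library by 10x Chromium (v3 chemistry). All 4 came from the same cross, labelled Tie2-bG-Micm x RosaYFP, with no untreated or wild-type group beside it. Both gates took cells without lineage markers and CD48 and with Kit and Sca-1. Cells with CD150 were LT-HSC and cells without it ST-HSC, so the sort should leave out mature macrophages, whose defining markers are described with the results.

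The 3 C1q genes lie side by side on chromosome 4 of the mm10 assembly, all on the minus strand, within 18675 bases. C1qb runs from 136880129 to 136886187, C1qc from 136889804 to 136893065 and C1qa from 136895917 to 136898803. Promoter sequences are shown for C1qb, C1qc and 2 macrophage genes found with them in the same cells, Fcna and Cd5l, since these genes were carried together. They come from RefSeq (GRCm38.p6) and reach from 250 bases before to 50 bases after each gene's start, 5′ to 3′ on the gene's strand. Of 8 genes looked up (the C1q genes, Fcna, Cd5l, Vcam1, Slc40a1 and Hmox1), 4 were matched. Capitals mark GAGGAA, the core of the site of the myeloid factor PU.1, and TGCTGA, the core of the element of the Maf factors, on either strand (TTCCTC and TCAGCA). The motifs can share the letters GA at their ends, and no matches overlap in these sequences.
C1qb, chr4:136886151-136886450, minus strand: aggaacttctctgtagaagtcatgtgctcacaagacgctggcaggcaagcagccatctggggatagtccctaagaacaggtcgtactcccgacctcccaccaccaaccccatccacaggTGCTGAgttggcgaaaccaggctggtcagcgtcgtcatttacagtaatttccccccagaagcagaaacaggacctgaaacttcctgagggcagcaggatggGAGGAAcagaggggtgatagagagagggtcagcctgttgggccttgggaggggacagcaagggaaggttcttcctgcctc
C1qc, chr4:136892865-136893164, minus strand: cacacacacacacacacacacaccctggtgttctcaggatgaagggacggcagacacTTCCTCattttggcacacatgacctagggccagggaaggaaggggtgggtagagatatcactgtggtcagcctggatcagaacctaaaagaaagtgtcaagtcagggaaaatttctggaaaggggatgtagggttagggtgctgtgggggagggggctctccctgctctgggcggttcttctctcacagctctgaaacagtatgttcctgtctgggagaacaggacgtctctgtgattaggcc
Fcna, chr2:25627925-25628224, minus strand: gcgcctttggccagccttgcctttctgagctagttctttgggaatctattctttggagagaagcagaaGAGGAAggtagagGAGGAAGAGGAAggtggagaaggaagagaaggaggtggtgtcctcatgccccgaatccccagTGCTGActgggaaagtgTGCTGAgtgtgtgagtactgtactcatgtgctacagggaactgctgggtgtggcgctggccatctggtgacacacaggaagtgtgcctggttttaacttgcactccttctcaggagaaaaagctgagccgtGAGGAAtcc
Cd5l, chr3:87357631-87357930, plus strand: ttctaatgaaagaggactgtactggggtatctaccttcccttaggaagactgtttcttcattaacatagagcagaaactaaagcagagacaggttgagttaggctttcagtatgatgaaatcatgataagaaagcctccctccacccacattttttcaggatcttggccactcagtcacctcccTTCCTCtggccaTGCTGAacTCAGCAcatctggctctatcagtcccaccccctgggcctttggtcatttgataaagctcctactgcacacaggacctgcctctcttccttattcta
GAGGAA stood in all 4 of these promoters and in 28.3% of the 32851 mouse promoters of 300 bases in the same table. TGCTGA stood in 3 of the 4, not in C1qc, and in 19.5% of all promoters. The promoters of Mrc1, Aif1 and Hpgd, other genes described with these cells, hold GAGGAA but not TGCTGA, which makes 7 of 7 and 3 of 7. These are matches of letters and do not show that a factor binds.

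The libraries held 13249904 UMIs in kept cells of mouse 2 LT-HSC, 27870823 in mouse 1 ST-HSC and 13566531 in mouse 2 ST-HSC. The mouse 1 LT-HSC library stood apart, with 22 kept cells of 39553 barcodes and 115305 UMIs in them, and had no C1q-bearing cell. It therefore entered no test, and LT-HSC are described from mouse 2 alone. The median depth of C1q-bearing and C1q-negative cells was close: 10552.5 and 10350 UMIs in mouse 2 LT-HSC, 9962 and 9881 in mouse 1 ST-HSC, and 6958.5 and 7519 in mouse 2 ST-HSC. Of the kept barcodes 2 occurred in more than 1 library, none of them in a C1q-bearing cell.

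The share of C1q-bearing cells was 3.29% in mouse 2 LT-HSC (40 of 1217 cells, 95% exact binomial interval 2.36% to 4.45%). In ST-HSC it was 3.99% in mouse 1 (105 of 2633, 3.27% to 4.81%) and 3.63% in mouse 2 (62 of 1707, 2.80% to 4.63%). The 3 intervals overlap, and the gates were not set apart by this share. In mouse 1 LT-HSC, with 0 of 22 cells, the exact interval reaches 15.4% (3 counts of 22 would be 13.6%). Core cells made up 1.07% of mouse 2 LT-HSC (13 cells), 0.836% of mouse 1 ST-HSC (22 cells) and 0.820% of mouse 2 ST-HSC (14 cells). When every cell was thinned to 2000 UMIs, the share of C1q-bearing cells was 0.904%, 0.836% and 1.52% in the same order, so the share depends strongly on depth. Intervals cover counting error only.

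**Figure D1:**
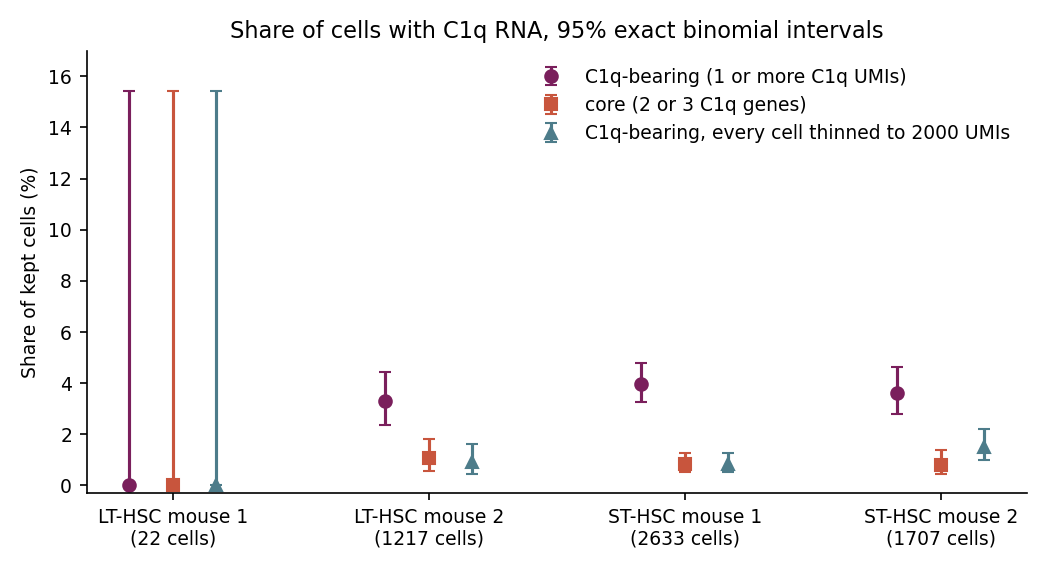
Share of kept cells that were C1q-bearing, core, or C1q-bearing after thinning, in percent, for each library with its number of kept cells; points are the shares and bars 95% exact binomial intervals. The 3 libraries with more than 1000 kept cells lie between 3.29% and 3.99%, and the interval of mouse 1 LT-HSC spans all of them.

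C1q RNA was sparse in nearly all of these cells. A single C1q UMI was the whole evidence for 139 of the 207 (67.2%), the cells just inside the rule; 40 had 2 UMIs, 11 had 3 and 17 had 4 or more, up to 12. Cells with C1qa alone numbered 65, with C1qb alone 57 and with C1qc alone 36. Pairs were seen in 36 cells (13 with C1qa and C1qb, 8 with C1qa and C1qc, 15 with C1qb and C1qc), and all 3 genes in 13. The genes were found together: C1qb had UMIs in 26.3% of cells with C1qa and in 1.31% of cells without it, and C1qc in 28.6% of cells with C1qb and in 0.803% of cells without it. The order was the same in each library, with C1qb in 40.0%, 22.4% and 23.3% of cells with C1qa in mouse 2 LT-HSC, mouse 1 ST-HSC and mouse 2 ST-HSC, against 1.25%, 1.43% and 1.19% of cells without it. Of all C1q UMIs in kept cells, C1qa held 37.0%, 37.3% and 39.0%, C1qb 37.0%, 34.9% and 33.3%, and C1qc 26.0%, 27.7% and 27.6%, so the chains kept nearly 1 ratio across libraries.

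Free RNA in droplets can give UMIs in cells that do not make a gene. Cells with 10 or more UMIs of 8 neutrophil granule and lineage genes, a class not known for C1q that may also hold stem cells primed toward granulocytes, were C1q-bearing in 23 of 404 cases (5.69%, 3.64% to 8.42%) at a median of 11596 UMIs. The other kept cells were C1q-bearing in 184 of 5175 cases (3.56%, 3.07% to 4.10%) at a median of 9039 UMIs. After thinning to 2000 UMIs the shares were 0.990% and 1.06%. The other kept cells were not above this class. In all 207 C1q-bearing cells, however, Elane had 2 UMIs, Mpo 2, Camp 1, Ngp 3 and Ltf none. The 23 cells therefore entered the class almost wholly through the other genes of the 8, Prtn3, Ctsg and Ms4a3. The class thus gives no C1q background of neutrophils, and the share alone is not read as expression of C1q. Of 13 cells with 100 or more such UMIs, a class set after the values were seen, 0 were C1q-bearing (exact interval up to 24.7%), too few to give a background share. Over kept cells C1q lay at 5.51 CPM (UMIs of the gene scaled to a common library total) in mouse 2 LT-HSC and at 5.96 and 7.74 CPM in mouse 1 ST-HSC and mouse 2 ST-HSC. In the barcodes of mouse 1 LT-HSC below the cell filter, whose median depth was 285 UMIs, C1q lay at 5.13 CPM (exact Poisson interval 3.99 to 6.49), with 69 UMIs spread over 68 barcodes and no barcode holding 2 of the genes. The few barcodes below the filter of the other libraries were far richer, at 311 CPM in mouse 1 ST-HSC (5 barcodes with C1q), 179 CPM in mouse 2 LT-HSC (6 barcodes) and 117 CPM in mouse 2 ST-HSC (4 barcodes), and 2, 3 and 2 of these barcodes held 2 or 3 of the genes. The part of free RNA in the C1q counts was not tested.

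The next comparison asked what else C1q-bearing cells carried, with raw counts summed by library and class and tested in edgeR with the library as a block, over 3 libraries of 2 mice. Genes of bone marrow macrophages stood out. Fcna, Vcam1, Cd5l, Slc40a1 and Hmox1 were all higher in C1q-bearing than in C1q-negative cells of every library, by 3.1 to 5.97 on the log2 scale, while the stem cell genes of the same cells stayed near the level of the C1q-negative cells. In all, 19 of 11889 genes passed as higher (0.16%) and 17 as lower (0.143%) at an adjusted p under 0.05. For 10 of the 19, among them Fcna, Vcam1, Cd5l, Slc40a1, Aif1, Mrc1, Hpgd, Ccr3 and Fabp4, the C1q-negative sums alone did not reach the count filter in every library, so these genes were tested because they were high in C1q-bearing cells, and their number is not read as evidence. Without the 3 C1q-bearing and 10 C1q-negative cells that held 10 or more UMIs of the macrophage list, 15 of the 19 were called by edgeR.

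Fcna, which encodes the lectin ficolin A, another starter of complement, lay at 11.6, 12.3 and 24.1 CPM in C1q-bearing cells of mouse 2 LT-HSC, mouse 1 ST-HSC and mouse 2 ST-HSC. In C1q-negative cells it lay at 0.312, 0.224 and 0.153 CPM. No values of the classes overlapped, but Fcna was tested only because it was high in C1q-bearing cells. The share of all tested genes without overlap was not counted, so this is a description. The log2 fold change was 5.97 (SE 0.62, edgeR adjusted p = 9.4e-19). Behind it stood 30 UMIs in 23 of 207 C1q-bearing cells and 12 UMIs in 12 of 5350 C1q-negative cells.

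Vcam1 encodes the adhesion protein by which marrow macrophages hold erythroid cells. It lay at 16.2, 13.2 and 21.9 CPM in C1q-bearing cells and at 0.390, 1.16 and 0.687 CPM in C1q-negative cells of the same libraries. These values did not overlap either, with the same limit as for Fcna. The log2 fold change was 4.23 (SE 0.49, edgeR adjusted p = 9.4e-15). It rested on 32 UMIs in 25 C1q-bearing cells and 45 UMIs in 39 C1q-negative cells.

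Cd5l, a protein secreted by tissue macrophages that blocks apoptosis, had the fewest UMIs of the 5. C1q-bearing cells held 2, 7 and 3 UMIs, or 4.63, 6.16 and 6.56 CPM, against 1, 5 and 3 UMIs, or 0.0780, 0.187 and 0.229 CPM, in C1q-negative cells. The log2 fold change was 5.01 (SE 0.93, edgeR adjusted p = 4.9e-05). Each library had at most 7 UMIs in a class, so the fold is loosely known.

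Both genes of heme iron recycling were higher as well. Hmox1, the heme oxygenase that opens the heme ring, was the most abundant, at 48.6, 27.3 and 52.5 CPM in C1q-bearing cells against 5.15, 3.63 and 5.80 CPM in C1q-negative cells. Its log2 fold change was 3.1 (SE 0.27, edgeR adjusted p = 1.9e-27), from 76 UMIs in 56 C1q-bearing cells. Slc40a1, the iron exporter ferroportin, lay at 9.26, 14.1 and 8.75 CPM against 1.09, 1.46 and 1.07 CPM, a log2 fold change of 3.18 (SE 0.51, edgeR adjusted p = 3.2e-07). Without mouse 1 ST-HSC the Slc40a1 call was lost at a fold change of 3.03 (edgeR adjusted p = 0.074).

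The macrophage list gave few genes that could be tested without regard to their level in C1q-bearing cells. Of its 24 genes, 5 were abundant enough in C1q-negative cells to be tested whatever their level in C1q-bearing cells. Of these Hmox1 rose, and Axl, Cd68, Sirpa and Spic did not pass, against 0.16% higher among all genes tested. Another 7 were tested only through C1q-bearing cells, and 6 of them were called (Fcna, Vcam1, Cd5l, Slc40a1, Mrc1 and Aif1), a count that their entry into the test favours and that is given as a description. Aif1, an actin-bundling protein of macrophages, lay at 4.63, 11.4 and 13.1 CPM in C1q-bearing cells against 1.01, 1.31 and 1.60 CPM (2.96, SE 0.53, edgeR adjusted p = 1.6e-05), and its call was lost without mouse 1 ST-HSC (edgeR adjusted p = 0.13). Mrc1, the mannose receptor, had 8 UMIs in C1q-bearing cells and 11 in C1q-negative cells (4.16, SE 1.05, edgeR adjusted p = 0.027), and its call was lost without mouse 2 LT-HSC (edgeR adjusted p = 0.34). Summed over the list, RNA reached 155, 161 and 208 CPM in C1q-bearing cells of mouse 2 LT-HSC, mouse 1 ST-HSC and mouse 2 ST-HSC, against 42.2, 47.4 and 56.3 CPM in C1q-negative cells. Several defining receptors of macrophages had few or no UMIs: Fcgr1 and Marco had 0 UMIs in all 207 cells, Csf1r and Mertk 1 UMI each and Adgre1 5. Counts this low do not show that the receptors were missing, since Cd5l was called on 12 UMIs and Mrc1 on 8.

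**Figure D2:**
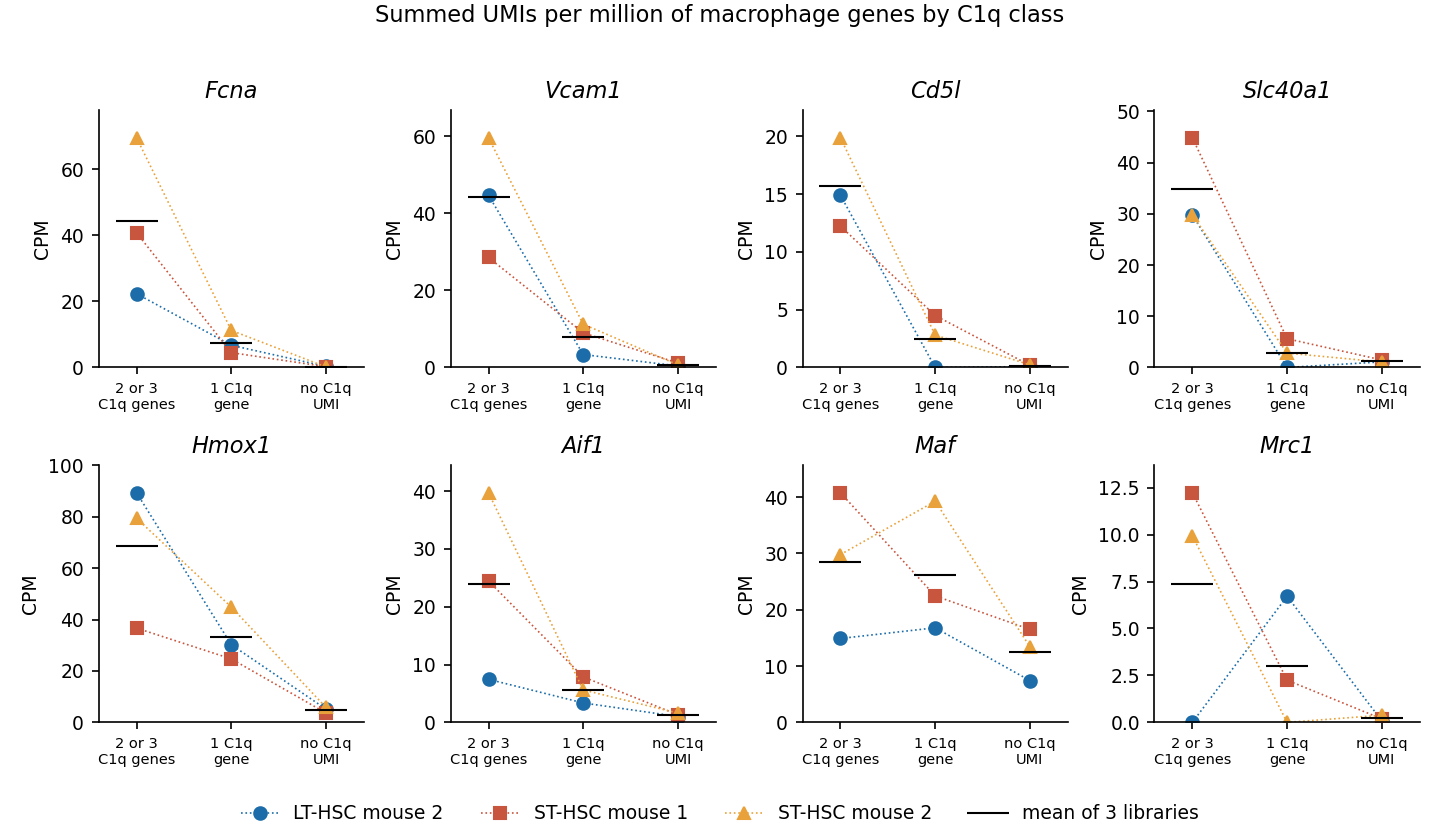
Levels of 8 macrophage genes in CPM (vertical axes, linear, starting at 0) in core cells, single-gene cells and C1q-negative cells; each point is the summed count of a library and the black line the mean of 3 libraries. For Fcna, Vcam1, Cd5l, Slc40a1, Hmox1 and Aif1 all 3 core values lie above all C1q-negative values, with Hmox1 at 36.7 to 89.4 CPM against 3.63 to 5.80 CPM. All of these but Hmox1 were tested only because they were high in core cells.

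Among macrophage transcription factors, 16 of 20 genes were tested, 2 rose and none fell, with a median log2 fold change of 0.03. Maf, a factor of tissue macrophages among the 2, lay at 16.2, 26.4 and 37.2 CPM in C1q-bearing cells against 7.41, 16.5 and 13.4 CPM in C1q-negative cells (1.00, SE 0.26, edgeR adjusted p = 0.039) and passed in none of the fits that left out a library. Spic, the factor of iron-recycling macrophages, did not pass, at 6.94, 8.80 and 6.56 CPM against 4.13, 5.91 and 6.79 CPM.

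Other genes that rose in every library include Hpgd and Ccr3, chosen after their values were seen, and Fabp4. Hpgd, which degrades prostaglandins, lay at 6.94, 7.92 and 10.9 CPM in C1q-bearing cells against 0.546, 1.42 and 1.30 CPM (2.82, SE 0.58, edgeR adjusted p = 6.5e-04). Ccr3, a chemokine receptor, had 9 UMIs in 9 C1q-bearing cells and 6 UMIs in 6 of the C1q-negative cells (5.18, SE 1.10, edgeR adjusted p = 0.0012). Fabp4, a fatty acid carrier of macrophages, endothelium and fat, lay at 4.63, 6.16 and 30.6 CPM against 0.624, 0.786 and 1.53 CPM (3.62, SE 0.54, edgeR adjusted p = 2.7e-08). A single cell held 7 of its 23 UMIs, and the call was lost without mouse 2 ST-HSC (2.92, edgeR adjusted p = 0.16), as was that of Hpgd (2.70, edgeR adjusted p = 0.057).

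Gene groups for iron, lipids, complement and engulfment were mostly unmoved beyond these genes. In iron and heme handling 17 of 21 genes were tested and 3 rose, the third being Ftl1, the light chain of ferritin, at 1893, 1462 and 2296 CPM against 1717, 1246 and 1812 CPM (0.25, SE 0.04, edgeR adjusted p = 2.3e-06). The Ftl1 call was lost without mouse 2 ST-HSC (0.18, edgeR adjusted p = 0.14). In lipid transport 2 of 12 tested genes rose, Fabp4 and Apoe, and Apoe lay at 565, 212 and 190 CPM against 646, 122 and 96.8 CPM, lower in mouse 2 LT-HSC and higher in both ST-HSC libraries (0.45, SE 0.08, edgeR adjusted p = 2.9e-04). The Apoe call was lost without mouse 1 ST-HSC (0.12, edgeR adjusted p = 0.99) or mouse 2 ST-HSC (0.27, edgeR adjusted p = 0.31). None of 4 tested genes of the rest of the complement pathway passed, and 16 of its 24 genes had 0 UMIs in C1q-bearing cells, among them C1rb, C1s1 and C1s2, whose products belong to the family of proteases that join C1q. Summed, this list lay at 37.0, 26.4 and 39.4 CPM in C1q-bearing cells against 24.3, 25.9 and 32.3 CPM in C1q-negative cells. The protease gene C1ra was tested and did not pass (edgeR adjusted p = 1.00). None of 13 complement receptors and regulators, of 15 engulfment genes and of 28 lysosomal hydrolases passed. For the hydrolases 25 of 28 fold changes were positive (89.3%), with a median of 0.18, against 50.3% positive over all genes tested; this is a description, since no member was called. The lowest p were those of Ctsb (0.39, SE 0.12, edgeR adjusted p = 0.16) and Ctsd (0.32, SE 0.09, edgeR adjusted p = 0.17).

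Macrophage genes were found in a larger share of core cells than of single-gene cells, and in the smallest share of C1q-negative cells. UMIs of Vcam1, Cd5l, Slc40a1 or Hmox1 were found in 27 of 49 core cells (55.1%, 40.2% to 69.3%), in 49 of 158 single-gene cells (31.0%, 23.9% to 38.9%) and in 291 of 5350 C1q-negative cells (5.44%, 4.85% to 6.08%). After thinning to 2000 UMIs the shares were 26.5%, 6.33% and 1.55%. For Vcam1, Cd5l or Fcna they were 44.9%, 13.9% and 1.08%, and in each library core cells came first, with 6 of 13, 9 of 22 and 7 of 14 cells in mouse 2 LT-HSC, mouse 1 ST-HSC and mouse 2 ST-HSC, against 0.850%, 1.34% and 0.851% of C1q-negative cells. At least 2 of the 5 genes Vcam1, Cd5l, Slc40a1, Hmox1 and Fcna were found together in 18 core cells (36.7%), 16 single-gene cells (10.1%) and 11 C1q-negative cells (0.206%). These shares were chosen after their values were seen. Fcna, Vcam1, Cd5l and Slc40a1 had been tested only because they were high in C1q-bearing cells. The shares are therefore a description, and the intervals, of cells pooled over libraries, cover counting error only.

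**Figure D3:**
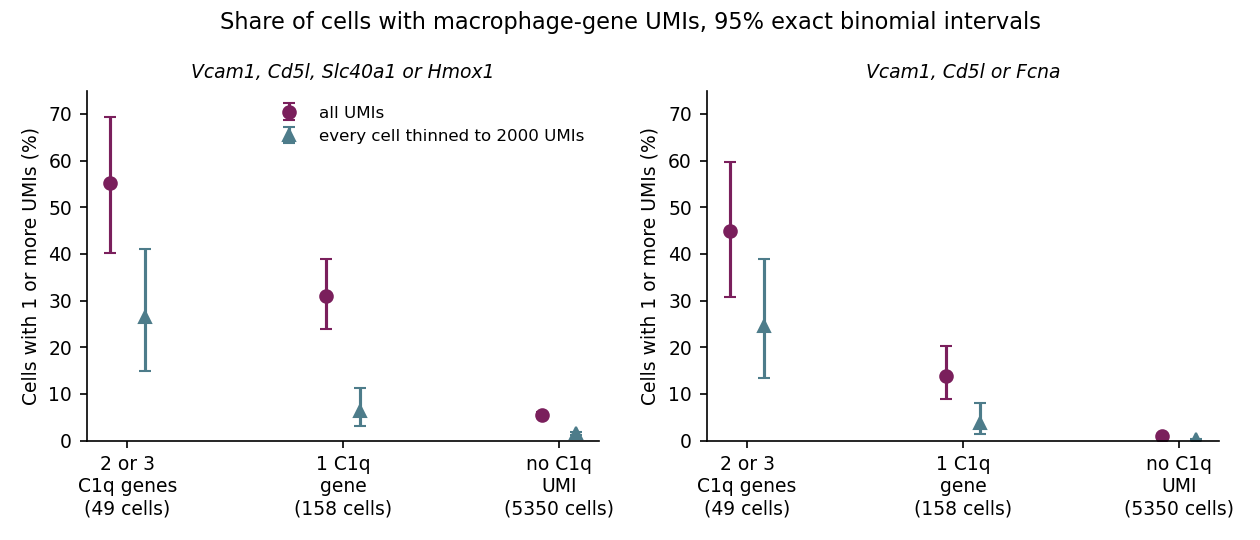
Share of core, single-gene and C1q-negative cells with at least 1 UMI of the named macrophage genes, in percent, pooled over 3 libraries, with all UMIs (circles) and with every cell thinned to 2000 UMIs (triangles); bars are 95% exact binomial intervals. Core cells lie highest in both panels, at 55.1% and 44.9%, and C1q-negative cells lowest, at 5.44% and 1.08%. The shares were chosen after their values were seen, and the intervals cover counting error only.

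Tested alone against C1q-negative cells, core cells had 16 genes higher (0.139%) and 7 lower (0.0606%) of 11546. Of the 16, 9 were higher in all 3 libraries, and for 6 (Retnlg, Slpi, S100a8, S100a9, Ccl5 and Tyrobp) 1 cell of mouse 2 ST-HSC held over 50% of the UMIs. For another 6, Fcna, Vcam1, Slc40a1, Cd5l, Aif1 and Hpgd, the C1q-negative sums did not reach the count filter, so these were tested because they were high in core cells. Fcna averaged 44.2 ± 23.8 CPM in core cells and 0.230 ± 0.080 CPM in C1q-negative cells (SD, n = 3 libraries each), with a log2 difference of 7.39 (SE 0.91, edgeR adjusted p = 2.0e-12). Vcam1 lay at 44.3 ± 15.5 against 0.745 ± 0.388 CPM (5.49, SE 0.76), Slc40a1 at 34.8 ± 8.69 against 1.21 ± 0.219 CPM (4.81, SE 0.72), Cd5l at 15.7 ± 3.88 against 0.165 ± 0.078 CPM (6.28, SE 1.49) and Hmox1 at 68.5 ± 28.0 against 4.86 ± 1.11 CPM (3.68, SE 0.47), all past the threshold. The Slc40a1 call was lost without mouse 1 ST-HSC (4.69, edgeR adjusted p = 0.33). Against 5 depth-matched C1q-negative cells per core cell, 2 genes were higher and 0 lower by edgeR, and the calls of Vcam1 (5.21, edgeR adjusted p = 0.078) and Slc40a1 (3.79, edgeR adjusted p = 0.19) were lost.

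Single-gene cells, most with 1 C1q UMI, had 7 genes higher (0.0596%) and 13 lower (0.111%) of 11740. Fcna lay at 7.48 ± 3.43 against 0.230 ± 0.080 CPM (4.79, SE 1.07, edgeR adjusted p = 0.014) and Vcam1 at 7.85 ± 4.05 against 0.745 ± 0.388 CPM (3.23, SE 0.74, edgeR adjusted p = 0.020). Here too Fcna and Vcam1 entered the test only through the C1q-bearing cells, whereas Hmox1 did not. Hmox1 lay at 33.3 ± 10.4 against 4.86 ± 1.11 CPM (2.78, SE 0.32, edgeR adjusted p = 1.2e-10) and was also called without each library in turn. Fcna lost its call without mouse 2 LT-HSC (4.94, edgeR adjusted p = 0.10) or mouse 2 ST-HSC (4.28, edgeR adjusted p = 0.92), and Vcam1 without mouse 1 ST-HSC (3.71, edgeR adjusted p = 0.83) or mouse 2 ST-HSC (2.94, edgeR adjusted p = 0.69). The difference between core and single-gene cells was not tested.

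The cells that carried macrophage RNA carried stem cell RNA too. At least 3 of 7 stem genes (Kit, Ly6a, Mecom, Hlf, Procr, Mllt3 and Meis1) were found in 40 of 40 C1q-bearing mouse 2 LT-HSC, in 104 of 105 mouse 1 ST-HSC and in 61 of 62 mouse 2 ST-HSC. In C1q-negative cells of the same libraries the shares were 98.9%, 98.4% and 96.9%, so nearly every kept cell passed. Of the 28 core cells with RNA of Vcam1, Cd5l, Slc40a1, Hmox1 or Fcna, 27 had Hlf (96.4%), 26 had Ly6a (92.9%) and 22 had Kit (78.6%). Among all C1q-negative cells of the 3 libraries the shares were 97.1%, 79.9% and 85.2%. The median depth of the 28 core cells was 8695.5 UMIs, against 9450 UMIs in the 21 core cells without such RNA. A mouse 1 ST-HSC with 10647 UMIs held 6 C1q UMIs and 23 UMIs of the macrophage list, with 4 of Fcna, 4 of Hmox1 and 2 of Cd5l, beside 2 of Kit, 5 of Ly6a and 7 of Hlf. The cell with the most C1q UMIs, a mouse 2 ST-HSC, held 12 of them and 16 UMIs of the macrophage list. It had 0 UMIs of Kit, 3 of Ly6a and 5 of Hlf. In mouse 2 ST-HSC, Kit was found in 8 of 14 core cells (57.1%) and in 81.8% of C1q-negative cells. The values were 12 of 13 (92.3%) and 87.2% in mouse 2 LT-HSC, and 20 of 22 (90.9%) and 86.6% in mouse 1 ST-HSC. Whether these were droplets with RNA of more than 1 cell was not tested, and no doublet caller was run.

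None of 27 tested HSC-enriched genes and none of 6 stem gate genes passed in either direction, with median log2 fold changes of 0.04 and -0.04. Kit, the receptor of stem cell factor, lay at 315, 228 and 282 CPM in C1q-bearing cells against 245, 223 and 248 CPM in C1q-negative cells (0.18, SE 0.08, edgeR adjusted p = 0.85). Ly6a lay at 359, 256 and 389 CPM against 240, 259 and 308 CPM (0.28, SE 0.08, edgeR adjusted p = 0.098), and passed, among the settings tried, only without mouse 1 ST-HSC (0.45, edgeR adjusted p = 0.0015). Hlf was detected in 206 of 207 C1q-bearing cells (99.5%) and in 97.1% of C1q-negative cells, at 572, 738 and 761 CPM against 466, 732 and 660 CPM (0.16, SE 0.06, edgeR adjusted p = 0.51). Mecom lay at 157, 94.2 and 98.4 CPM against 127, 86.0 and 92.9 CPM (0.19, SE 0.11, edgeR adjusted p = 0.98). Slamf1, the gene of CD150, kept to the gates in both classes, at 20.8, 0.880 and 0 CPM in C1q-bearing cells and 21.9, 0.823 and 1.45 CPM in C1q-negative cells.

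**Figure D4:**
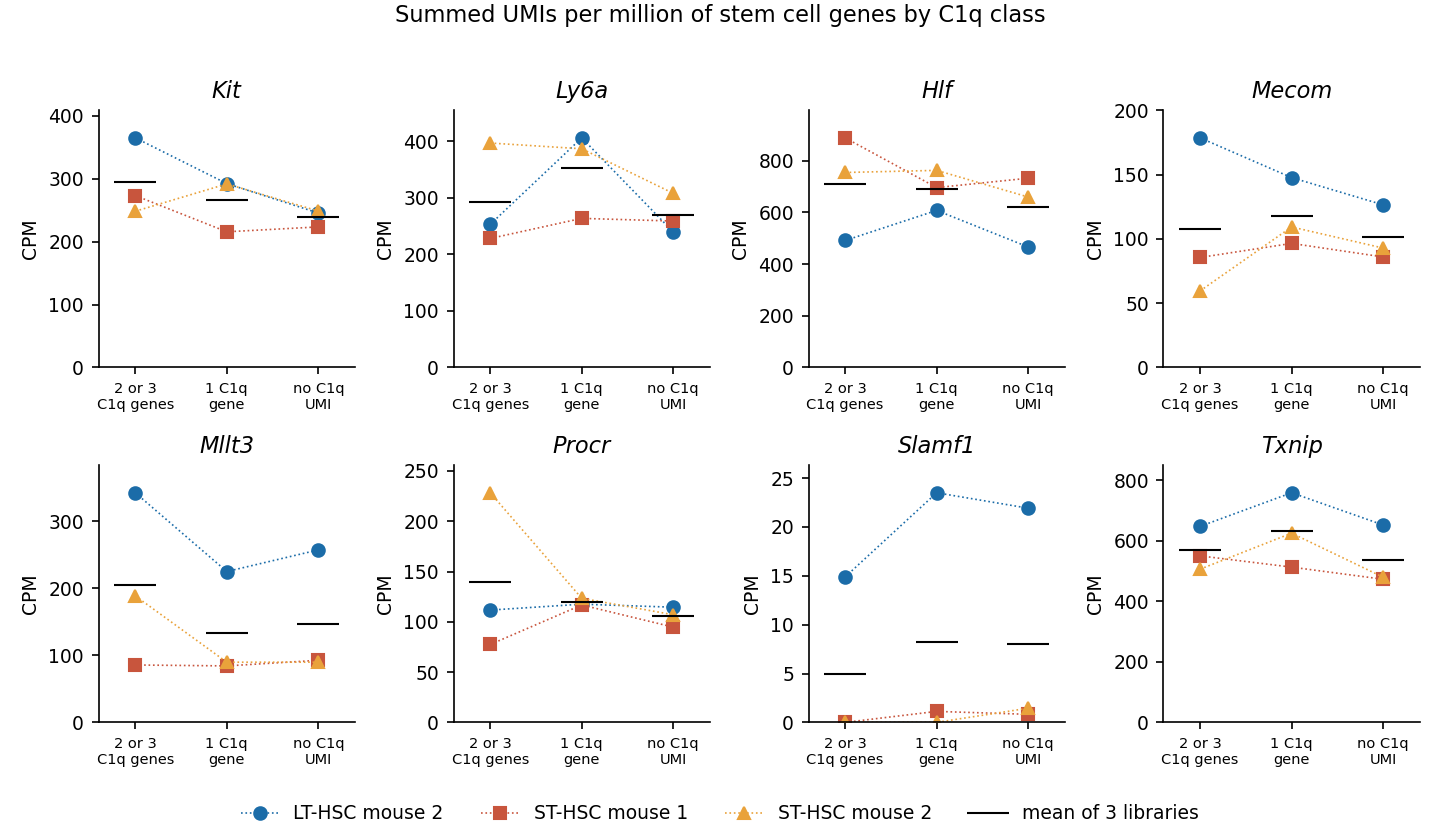
Levels of 8 stem cell genes in CPM (vertical axes, linear, starting at 0) in core, single-gene and C1q-negative cells; each point is a library's summed count and the black line the mean of 3 libraries. Core and C1q-negative values overlap for each of the 8 genes, as for Hlf at 491 to 888 CPM in core and 466 to 732 CPM in C1q-negative cells; for Procr the single-gene values, 117 to 123 CPM, lie above the C1q-negative ones, 94.7 to 114 CPM.

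Several granulocyte genes were lower in C1q-bearing cells, but the list as a whole was not lower in every library. Summed, it lay at 470, 444 and 3785 CPM in C1q-bearing cells of mouse 2 LT-HSC, mouse 1 ST-HSC and mouse 2 ST-HSC, against 530, 1121 and 2449 CPM in C1q-negative cells. Of 11 tested genes of the neutrophil list, 5 fell, 1 rose and 5 did not pass; the median log2 fold change was -0.45. None of the 5 was called without the library block. Elane, the neutrophil elastase, had 0, 2 and 0 UMIs in C1q-bearing cells of mouse 2 LT-HSC, mouse 1 ST-HSC and mouse 2 ST-HSC against 2, 1850 and 798 UMIs in C1q-negative cells, a pooled ratio of 0.0196 (counting interval 0.00238 to 0.0710). Mpo, myeloperoxidase, had 2 UMIs in all against 1685 (ratio 0.0309, 0.00373 to 0.112), and the granule genes Camp and Ngp had 1 against 2374 and 3 against 1673. The monocyte gene Ly6c2 had 0 UMIs against 793, at least 10.2-fold lower when set at 3 UMIs over the class. These UMIs came from few cells, and the ratios, counting intervals and bound do not cover the clumping of UMIs in single cells. Elane was found in 2 of 207 C1q-bearing and 58 of 5350 C1q-negative cells, and 1 C1q-negative cell held 37.8% of its C1q-negative UMIs. Ngp was found in 2 and 32 cells of these classes, Camp in 1 and 64, Mpo in 2 and 226 and Ly6c2 in 0 and 36. For Elane and Ngp the UMI ratios therefore do not show a lower share of cells with the gene. For Mpo the share of cells was smaller in C1q-bearing cells, and for Camp and Ly6c2 the cells are too few to tell. DESeq2 called Ngp alone among the 17 genes that fell, and without cells holding 10 or more neutrophil-gene UMIs 6 genes fell in all.

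A few calls in the other direction rested on 1 or 2 cells. Retnlg, a granulocyte gene, had 178 UMIs in C1q-bearing cells, 177 of them in 1 core cell of mouse 2 ST-HSC, against 1078 UMIs in C1q-negative cells. The same library held 39 of 43 Slpi UMIs in 1 cell, and 68 and 46 of 123 Ccl5 UMIs in a single-gene and a core cell. All 3 genes were higher in 1 of 3 libraries only, and their fold changes were negative when mouse 2 ST-HSC was left out. The core cells of that library include 1 cell with none of the 7 stem genes.

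A few genes of dividing cells fell in C1q-bearing cells. Tyms, thymidylate synthase, lay at 20.8, 30.8 and 17.5 CPM in C1q-bearing cells against 54.5, 42.3 and 38.1 CPM (-0.78, SE 0.20, edgeR adjusted p = 0.027). Pclaf, a partner of the replication clamp, lay at 16.2, 36.1 and 2.19 CPM against 45.9, 43.4 and 39.1 CPM (-0.85, SE 0.20, edgeR adjusted p = 0.011), and Stmn1, a microtubule regulator, at 764, 1114 and 927 CPM against 1053, 1159 and 1155 CPM (-0.25, SE 0.05, edgeR adjusted p = 5.0e-04). Of 32 S phase genes 1 passed, Tyms. The median log2 fold change of the list was -0.30, with 9.38% of values positive against 50.3% over all genes tested, a description since the rest did not pass. None of 30 G2 and M phase genes passed (median -0.09). Without mouse 2 LT-HSC the calls of Tyms (-0.63), Pclaf (-0.72) and Stmn1 (-0.19) were lost, at edgeR adjusted p of 0.69, 0.335 and 0.33. Without mouse 2 ST-HSC those of Tyms (-0.73, edgeR adjusted p = 0.33) and Pclaf (-0.56, edgeR adjusted p = 0.99) were lost, and none of the 3 passed against depth-matched cells. A single cell of mouse 1 ST-HSC held 42.9% of the Pclaf UMIs of C1q-bearing cells.

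The effect of carrying C1q RNA was then compared between the LT-HSC library of mouse 2 and the ST-HSC libraries, as the effect in LT-HSC minus that in ST-HSC, with 1 LT-HSC library. There were 2 genes with a higher value in LT-HSC (0.0168%) and 16 with a lower one (0.135%) of 11889 by edgeR; DESeq2 called 0 of either, and 644 genes (5.42%) had an unadjusted p under 0.05 by edgeR. Genes of the cell cycle, such as Top2a and Mki67, were among them. Summed over the G2 and M phase list, RNA lay at 261 CPM in C1q-bearing against 726 CPM in C1q-negative mouse 2 LT-HSC, at 910 against 729 CPM in mouse 1 ST-HSC and at 446 against 548 CPM in mouse 2 ST-HSC. The S phase list gave 970 against 1717 CPM, 1644 against 1617 CPM and 1082 against 1443 CPM. Top2a, the topoisomerase of dividing cells, lay at 9.26 against 73.6 CPM in LT-HSC and at 73.9 against 66.9 and 19.7 against 41.3 CPM in mouse 1 ST-HSC and mouse 2 ST-HSC (difference of effects -2.93, SE 0.55, edgeR adjusted p = 1.7e-04). Mki67 had 0 UMIs in the 40 C1q-bearing LT-HSC and 460 in the C1q-negative ones. RNA of the G2 and M phase list was found in 87.5%, 90.5% and 72.6% of C1q-bearing cells of mouse 2 LT-HSC, mouse 1 ST-HSC and mouse 2 ST-HSC. In C1q-negative cells the shares were 88.3%, 90.8% and 84.3%. The sums can thus turn on a few cells, and the tests do not cover UMIs packed into single cells. With 1 LT-HSC library, the gate and that library cannot be told apart.

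**Figure D5:**
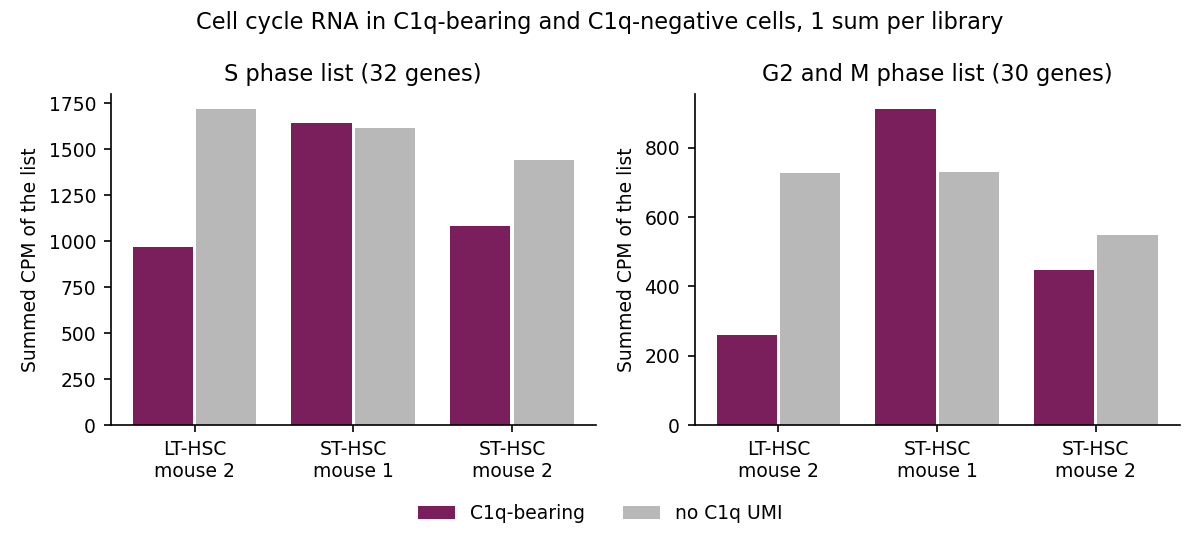
Summed CPM of the S phase (left) and G2 and M phase (right) lists in C1q-bearing and C1q-negative cells, 1 bar per library and class, with no replicate per library. In mouse 2 LT-HSC the G2 and M phase list reaches 261 CPM in C1q-bearing and 726 CPM in C1q-negative cells, and in mouse 1 ST-HSC 910 and 729 CPM.

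Markers of other cell types were counted in the same cells. Of the B cell list 7 of 13 genes had 0 UMIs in C1q-bearing cells, among them Cd79a and Ms4a1, of the T and NK cell list 12 of 16, and of the stromal list 9 of 16, with no member of these lists called. Of the endothelial list Cdh5, Flt1, Plvap and Sox17 had 0 UMIs, and of the erythroid list Alas2, Gata1 and Slc4a1. These zeros are of single genes and do not show that a list was absent. Sums follow for mouse 2 LT-HSC, mouse 1 ST-HSC and mouse 2 ST-HSC, C1q-bearing before C1q-negative cells. The endothelial list gave 356, 367 and 308 against 386, 342 and 370 CPM. The erythroid list gave 1025, 1021 and 1419 against 1023, 1088 and 1185 CPM. The B cell list gave 48.6, 72.2 and 78.7 against 46.9, 79.6 and 86.4 CPM. The T and NK cell list gave 23.1, 104 and 78.7 against 43.8, 103 and 121 CPM. Hbb-bt, a globin gene whose reads can be shared with its near copy Hbb-bs, was the only erythroid gene to pass, at 197, 108 and 367 CPM against 115, 117 and 207 CPM (0.49, SE 0.09, edgeR adjusted p = 6.3e-05); the call was lost without mouse 2 LT-HSC (0.36, edgeR adjusted p = 0.12) or mouse 2 ST-HSC (0.24, edgeR adjusted p = 1.00). A single cell of mouse 2 LT-HSC held 59 of the 85 Hbb-bt UMIs of the C1q-bearing cells in that library. Interferon response genes were close to C1q-negative cells, with 1 of 23 lower, none higher and a median log2 fold change of 0.04.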

How the data were processed

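The authors deposited unnormalized counts of UMIs, by gene and barcode. Cell Ranger 3.1.0 and mm10 are named in the submitters' processing notes, and version 3.0.2 is written, per the file headers, in each matrix. The filter on cells, the C1q classes, the gene lists and the tests were chosen with earlier results of these data known. Raw counts were summed over the cells of each library and class, since cells are not replicates, without the C1q genes, and CPM values are of these sums. Sums were tested with edgeR 4.0.16 in R 4.3.3 (quasi-likelihood F-test, TMM, filterByExpr with a minimum count of 10 and a total of 15), with the library as a block and Benjamini-Hochberg adjustment over all genes tested, at a threshold of 0.05. Log2 fold changes are C1q-bearing, core or single-gene cells over C1q-negative cells. The block is part of the design because both classes of a library were sorted, prepared and sequenced together, so the classes are paired by library. The fits had 3 libraries of 2 mice and 2 residual degrees of freedom, and the LT-HSC and ST-HSC libraries of mouse 2 share an animal. With the block, p-values set the class difference against a spread over these libraries that edgeR estimates largely from all genes together. That spread may be technical and does not cover UMIs packed into single cells. A low p-value therefore does not show that a gene moved alike in each library. Retnlg, higher in 1 of 3 libraries, had an edgeR adjusted p of 4.8e-31. DESeq2 1.42.0, no filter, leave-one-out fits, depth-matched C1q-negative cells (5 per C1q-bearing cell) and further filters on cells were alternatives. Thinning drew 2000 UMIs per cell without replacement. A library with under 10 C1q-bearing cells, or under 5 core cells, entered no test. No doublet caller was run. The steps were tested on simulated data. Cells with 10 or more macrophage-list UMIs were called rich in macrophage RNA. Named genes were C1qa, C1qb, C1qc, Vcam1, Cd5l, Slc40a1, Hmox1, Kit and Ly6a, up to 12 genes each way by fold change among those that averaged at least 20 CPM and moved alike in all libraries, and, per list, up to 3 genes of lowest p that averaged at least 5 CPM. Aif1, Mrc1, Cd68, Hpgd, Ccr3, Ngp, Slpi, S100a8, S100a9, Tyrobp, Mecom, Slamf1, the markers at 0, the genes of the gate difference other than Top2a, and the shares of cells were chosen after their values were seen. Gene positions are from GENCODE vM21 and promoters from RefSeq.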

Additional observations from a re-analysis of the deposited data

Results flagged for a closer look

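The effect of carrying C1q RNA in the single LT-HSC library differed from that in the ST-HSC libraries for 18 genes (edgeR, adjusted p under 0.05, 1 residual degree of freedom). The gate and that library cannot be told apart, and 5.42% of genes had an unadjusted p under 0.05. As the LT-HSC effect minus the ST-HSC effect on the log2 scale, the values of cell cycle and DNA synthesis genes were -2.93 for Top2a, -4.17 for Spc24, -2.15 for Rfc4, -1.02 for Hmgb2 and -0.70 for Tubb5. Mki67 (-11.65), Birc5 (-11.31), Cdca8 (-11.28) and Kif11 (-10.90) had 0 UMIs in the 40 C1q-bearing mouse 2 LT-HSC, against 460, 442, 322 and 189 UMIs in C1q-negative LT-HSC, so their values depend on the prior count and are no bound. The granulocyte genes Retnlg (-13.30, also 0 UMIs in C1q-bearing LT-HSC), S100a9 (-2.56) and S100a8 (-2.05) move with mouse 2 ST-HSC, where C1q-bearing cells held 178, 573 and 724 UMIs of them. The other values were -1.05 for Apoe, -1.09 for Cd74, -1.66 for Oat, -1.28 for Cycs, 1.62 for Rnf213 and 1.13 for Arhgap30. DESeq2 called none of these genes, and the values do not cover UMIs packed into single cells.

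C1q UMIs were also found in barcodes outside the cell filter, which entered no comparison. There were 69 in mouse 1 LT-HSC, 68 in mouse 1 ST-HSC, 16 in mouse 2 LT-HSC and 14 in mouse 2 ST-HSC, each above the 3 counts that a count of 0 allows. In mouse 1 ST-HSC, 2 of these barcodes held 41 and 24 C1q UMIs, of 1273 and 856 UMIs in all. These held 27 and 40 UMIs of the macrophage list and 0 UMIs of Kit, Ly6a, Hlf and Mecom.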

How the results depend on the processing

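Genes called higher and lower in C1q-bearing cells, 19 and 17, numbered 11 and 1 with DESeq2, 3 and 0 with no replicate block, 8 and 1 against depth-matched C1q-negative cells, and 6 to 20 and 15 to 44 when a library was left out. The lower count was 41 with no filter on low counts, 11 without cells rich in macrophage RNA, 9 without the deepest 5% of cells and, chosen after seeing the data, 6 without cells holding 10 or more neutrophil-gene UMIs. In core cells 16 and 7 became 9 and 0 with DESeq2, 5 and 0 with no replicate block, 2 and 0 against depth-matched cells and 4 to 14 and 5 to 12 without a library; the lower count was 4 without macrophage-rich cells and 3 among cells with 3 or more of 7 stem genes, chosen after seeing the data. In single-gene cells 7 and 13 became 3 and 2 with DESeq2, 0 and 0 with no replicate block and 2 to 6 and 9 to 22 without a library; the lower count was 42 with no filter and 6 among cells with 3 or more stem genes. For the gate difference DESeq2 called 0 and 0. In C1q-bearing cells Fcna, Vcam1 and Hmox1 were called in 14 of 14 settings; without the block Cd5l (adjusted p = 0.14, edgeR) and Slc40a1 (adjusted p = 0.091, edgeR) were lost. Signs turned for Retnlg (-3.49 with DESeq2, and -9.54 to 2.52 without a library), Ccl5 (-1.33, and -4.33 to 3.11), Slpi (-0.55, and -2.56 to 2.43), Cxcl10 (-3.42 to 0.13 without a library) and the uncalled Mllt3 (-0.016 with no filter, -0.012 with no replicate block, -0.077 against depth-matched cells, and -0.056 to 0.11 without a library); the cause was not tested. Shares of C1q-bearing cells in mouse 1 ST-HSC, mouse 2 LT-HSC and mouse 2 ST-HSC were 0.836%, 0.904% and 1.52% after thinning and 1.37%, 1.15% and 1.05% with 2 or more C1q UMIs required. Depth limits the genes with few UMIs: 3 counts equal 0.108 to 0.226 CPM in the 3 tested libraries.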
